A study of Mus musculus with 4 samples.

Results

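The proteasome and immunoproteasome subunit genes were described in single-cell RNA profiles of leukocytes from the ischemic hemisphere of C57/BL6 mice. The mice had undergone tMCAO (transient occlusion of the middle cerebral artery), which models stroke by blocking a brain artery and then reopening it. Cells with high surface CD45, a protein carried by leukocytes, were sorted 14 days or 5 days after the occlusion, with 2 libraries on each day and 4 in all, made with the 10x Genomics Single Cell 3' v2 chemistry. The comparison is between these 2 times after the same injury, and no uninjured group was used here. The deposited matrices of the 2 days also differ in layout and in the fewest molecules counted in a barcode. File processing and time after injury therefore cannot be told apart. The age of the mice and the number of mice behind a library are not given in the sources used here, so p-values measure the spread between libraries, which may be technical. The high-CD45 sort also limits the microglia, which as a rule carry less CD45 than blood-derived leukocytes, to those that passed it. Members were all genes of the deposited gene list whose symbol starts with Psma, Psmb, Psmc, Psmd or Psme and a digit, without Psme2b and without names ending in -ps. This gave 44 of 31053 genes. They are 3 inducible catalytic subunits, 3 constitutive catalytic subunits, 7 alpha and 4 structural beta subunits of the 20S core, 6 ATPases and 14 non-ATPases or chaperones of the 19S cap, 4 activators, 2 tissue-specific subunits, and Psmc3ip, which the symbol rule takes in although it is not a proteasome subunit.

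The 20S proteasome is a barrel of alpha and beta rings that cuts proteins inside its chamber, and the 19S cap recognises ubiquitin-tagged proteins, unfolds them with its ATPases and feeds them in. Psmb5, Psmb6 and Psmb7 encode the constitutive catalytic beta subunits. In cells exposed to interferon, and in many immune cells at rest, Psmb8 (LMP7) takes the place of Psmb5, Psmb9 (LMP2) that of Psmb6, and Psmb10 (MECL-1) that of Psmb7, which makes the immunoproteasome. Psme1 and Psme2 encode the PA28 alpha and beta subunits, an interferon-inducible cap that opens the core without ubiquitin. The immunoproteasome is known for cutting peptides that MHC class I molecules present to CD8 T cells.

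Promoter windows from RefSeq (build GRCm38.p6) show what lies at the starts of genes that differed between the days and of one that did not. Each window is 300 bases long, from 250 before to 50 after an annotated start, read along the gene's strand, and 37 of the 44 members had 1 or more, 40 windows in all. Psmb9 is shown because it had the largest fold of the inducible subunits and because its window shares 275 bases with that of Tap1, the peptide transporter gene on the other strand. Psmb8 and Psme1 stand for the genes that rose with it in the same classes, and Psmb5 for the constitutive subunits. Capitals mark matches to 3 motifs searched on both strands, where N is any base.
Psmb9, chr17:34187281-34187580, minus strand: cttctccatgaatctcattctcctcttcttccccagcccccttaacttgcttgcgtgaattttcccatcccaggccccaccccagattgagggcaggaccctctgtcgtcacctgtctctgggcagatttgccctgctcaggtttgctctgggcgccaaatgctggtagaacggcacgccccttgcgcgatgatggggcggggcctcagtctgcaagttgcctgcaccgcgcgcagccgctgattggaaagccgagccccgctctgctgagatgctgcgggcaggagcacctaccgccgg
Psmb8, chr17:34197945-34198244, plus strand: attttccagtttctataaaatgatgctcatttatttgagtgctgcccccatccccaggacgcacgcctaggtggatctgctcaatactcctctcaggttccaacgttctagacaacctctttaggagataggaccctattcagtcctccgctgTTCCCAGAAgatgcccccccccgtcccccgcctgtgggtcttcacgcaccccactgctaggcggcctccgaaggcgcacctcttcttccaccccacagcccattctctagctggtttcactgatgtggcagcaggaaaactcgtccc
Psme1, chr14:55578244-55578543, plus strand: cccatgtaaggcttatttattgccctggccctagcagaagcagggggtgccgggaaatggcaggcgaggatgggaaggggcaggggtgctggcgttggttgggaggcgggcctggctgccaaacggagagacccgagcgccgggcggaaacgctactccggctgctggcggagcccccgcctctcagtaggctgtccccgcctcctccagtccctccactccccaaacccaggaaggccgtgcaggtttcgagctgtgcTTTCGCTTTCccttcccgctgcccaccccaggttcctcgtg
Psmb5, chr14:54617946-54618245, minus strand: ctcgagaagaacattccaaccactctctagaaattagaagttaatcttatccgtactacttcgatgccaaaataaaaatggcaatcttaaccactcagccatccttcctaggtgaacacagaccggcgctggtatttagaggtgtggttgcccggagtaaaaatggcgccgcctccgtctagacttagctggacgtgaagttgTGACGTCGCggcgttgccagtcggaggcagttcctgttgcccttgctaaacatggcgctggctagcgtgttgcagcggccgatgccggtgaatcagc
The motif GAAANNGAAA, a core of the interferon-stimulated response element, was found in 4 of the 40 member windows (10.0%) and in 3.44% of all 32851 windows. Its members were Psme1, where the match lies on the opposite strand, Psmb3, Psmd4 and Psmd9. TTCNNNGAA, the gamma-activated site, was found in 2 member windows (5.0%), those of Psmb8 and Psmd2, and in 8.30% of all windows. TGACNNNGC, the antioxidant response element read by the NRF factors, was found in 6 member windows (15%), among them Psmb5 and Psmb6, and in 12.4% of all windows. No match overlapped a match of another motif. A match here is a run of letters and not a measured binding site, and these letters were not found in the Psmb9 window. In the GENCODE annotation Psmb9 begins at base 34187764, Psmb8 at 34197721 and Psme1 at 55578123. These starts are upstream of the printed windows, so the sequence around them lies outside those windows.

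The libraries held 2583 and 2313 cell barcodes on day 14 and 2543 and 3486 on day 5, with between 9288054 and 13610119 UMIs (unique molecular identifiers, 1 for each RNA molecule counted). Each barcode was assigned to a class by marker genes that include no member, which gave 8666 cells in 9 classes. Between 3 and 7 of the 10 leading genes of each class were its own markers. Markers of another class were absent from these 10 except Ms4a7 in border-associated macrophages. As the classes were assigned by these same markers, this is no test of their names. Markers of 7 other cell types (endothelial, oligodendrocyte, astrocyte, neuron, red cell, platelet and mast cell) summed to at most 102 CPM in any class and library. CPM, the level used throughout, is the number of UMIs of a gene in 1000000 UMIs of the class in a library. Pairs of libraries shared between 5 and 16 barcode sequences. The barcode with the fewest UMIs held 1180 and 1317 on day 14 and 500 and 505 on day 5. Barcodes with over 10% mitochondrial UMIs numbered 3 and 5 on day 14 and 36 and 37 on day 5. Such differences between the deposited matrices cannot be told apart from the day. Since 3' counting takes 1 count per molecule whatever the transcript's length, levels were not divided by length. Psmb11, the thymus-specific catalytic subunit, had 0 UMIs in every class, and Psma8, the testis-specific alpha subunit, had 61 UMIs in all, so neither was tested. The other subunits had between 486 (Psme4) and 22733 UMIs (Psmb8), and Psmc3ip had 155.

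The catalytic subunits leaned towards the inducible set more on day 14 than on day 5. The ratio of Psmb8, Psmb9 and Psmb10 UMIs to Psmb5, Psmb6 and Psmb7 UMIs was above both day 5 libraries in both day 14 libraries in 8 of the 9 classes, as the plot of ratios by class shows. The ratio is a sum over chosen members and carries no test. Neutrophils had the widest gap, with ratios of 2.36 and 2.46 on day 14 and 1.13 and 1.09 on day 5. Monocytes or macrophages had ratios of 2.29 and 2.11 on day 14, against 1.20 and 1.37 on day 5. Microglia, the resident macrophages of the brain, stood at 1.54 and 1.61 on day 14 and 1.04 and 1.1 on day 5, close to parity on the earlier day. In these 3 myeloid classes the closest libraries of different days lay further apart than the libraries of 1 day. The same held for border-associated macrophages, plasmacytoid dendritic cells and NK cells. Border-associated macrophages, which line vessels and meninges, had 2.46 and 1.91 on day 14 and 1.17 and 1.31 on day 5, with 18 and 23 cells on day 14. The ratio was highest in conventional dendritic cells, the main antigen-presenting cells, at 3.38 and 3.26 on day 14 and 2.36 and 2.92 on day 5. Plasmacytoid dendritic cells, known as interferon producers, had 2.5 and 2.38 on day 14 and 1.91 and 1.88 on day 5. T cells were already high on day 5, and their gap was the narrowest of the 8, at 2.46 and 2.72 on day 14, against 2.3 and 2.33 on day 5. NK cells had 2.21 and 2.27 on day 14 and 1.61 and 1.24 on day 5. B cells were the class in which the days overlapped, with 1.73 and 1.58 on day 14 and 1.11 and 1.63 on day 5, and the days were apart there with mixed cells kept or with every cell thinned to 1000 UMIs. T cells did not keep the days apart under a stricter marker gate, nor did border-associated macrophages after the same thinning.

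**Figure D1:**
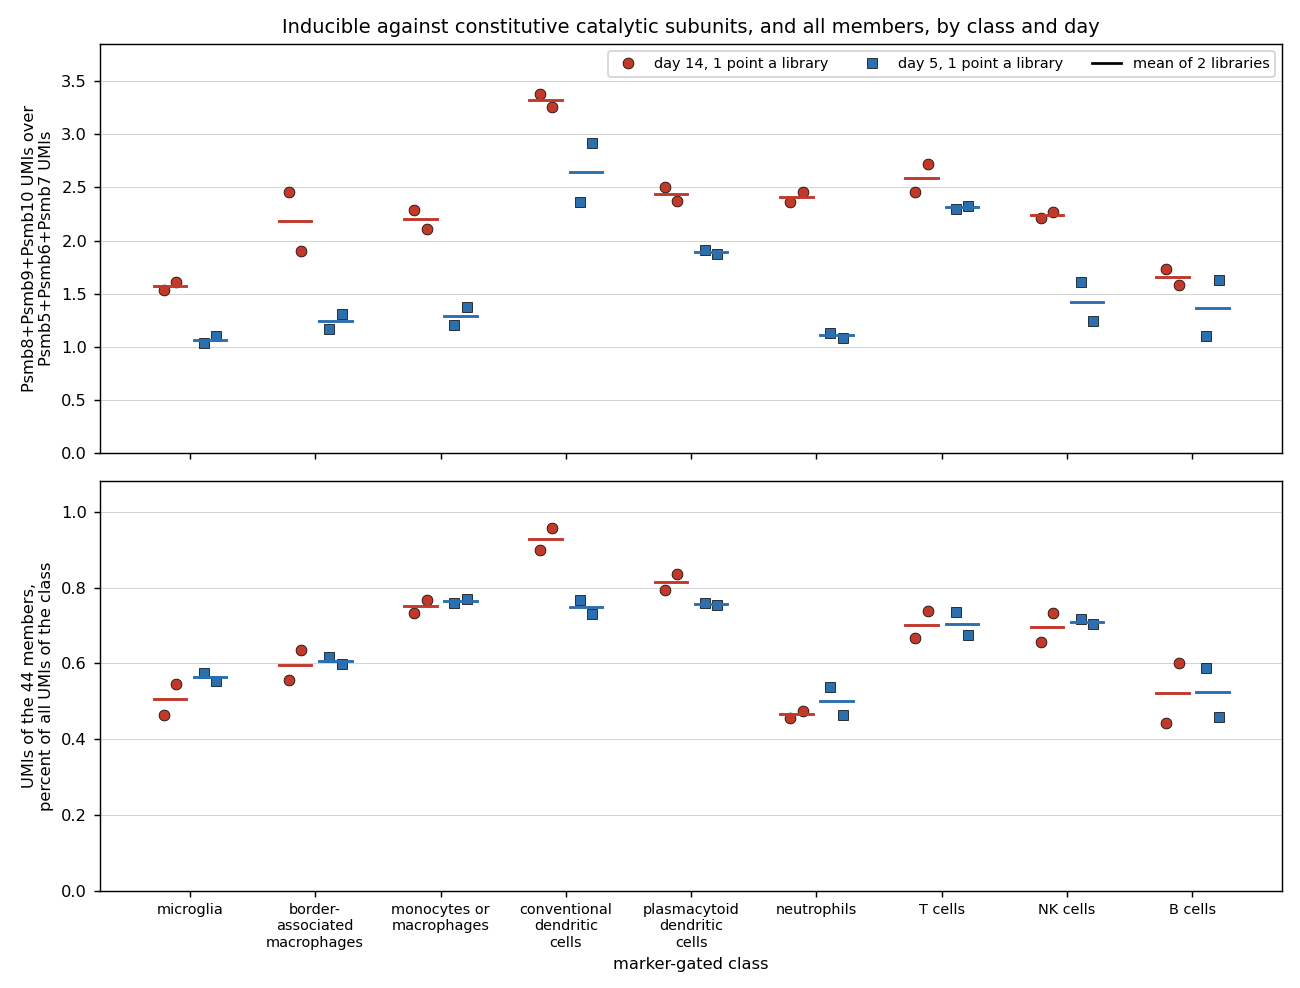
Ratio of inducible to constitutive catalytic subunit UMIs (top) and UMIs of all 44 members as a percent of all UMIs of the class (bottom), for 9 classes along the horizontal axis. Each point is a library, day 14 in red circles to the left and day 5 in blue squares to the right, and the bars are means of 2 libraries. The red points lie above the blue ones in every class but B cells in the top panel, and in both dendritic cell classes in the bottom panel.

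The 3 inducible subunits all rose in monocytes or macrophages and in conventional dendritic cells (edgeR's quasi-likelihood test, p-values adjusted over all genes tested in the class). In monocytes or macrophages 5 of 41 tested members rose and 1 fell, where 4.96% of all 8032 genes tested rose and 1.87% fell. Psmb9, which encodes the LMP2 subunit, had 299.6 and 286 CPM on day 14 and 126 and 161 CPM on day 5, a log2 fold change of 1.14 ± 0.14 (SE, adjusted p = 0.00104). The libraries of 1 day lay close together and the days did not overlap. Psmb10 (MECL-1) had 277 and 317 CPM on day 14 and 178 and 199.7 CPM on day 5 (log2 fold change 0.77 ± 0.14, adjusted p = 0.00758). Psmb8 (LMP7), the most abundant of the 3, had 765 and 785 CPM on day 14 and 545 and 562 CPM on day 5 (0.59 ± 0.11, adjusted p = 0.00985). Markers of other classes also moved in this class. Of 8 microglial markers 7 were lower on day 14, their sum being 861 and 848 CPM on day 14, against 1644 and 1748 CPM on day 5. All 6 T cell markers were higher, with sums of 41.4 and 42.3 CPM on day 14 and 1.79 and 1.31 CPM on day 5. The part of either in these results was not tested.

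In conventional dendritic cells 5 of 41 tested members rose and none fell, against 7.79% higher and 7.28% lower among the 7332 genes tested. Without adjustment 9 members were higher and 2 lower at a p under 0.05, and DESeq2 called 5 higher and 0 lower. Counts at an unadjusted p and counts by DESeq2 stand without the share of all genes, here and in the other classes. The share of all genes that kept the days apart is not given for any class either. Statements that the days did or did not overlap are therefore description only. Psmb8 reached its highest level of any class here, 1375 and 1389 CPM on day 14 and 978 and 968 CPM on day 5 (0.54 ± 0.08, adjusted p = 0.00047). Psmb9 stood at 513 and 582 CPM on day 14 and 306 and 348 CPM on day 5 (0.79 ± 0.12, adjusted p = 0.000419). Psmb10 was less abundant, with 238 and 243 CPM on day 14 and 163 and 159.9 CPM on day 5 (0.61 ± 0.12, adjusted p = 0.00379). For all 3 genes every day 14 library lay above every day 5 library. All 8 microglial markers were lower in this class on day 14, with sums of 537 and 451 CPM on day 14 and 1618 and 1689.8 CPM on day 5, and 5 of 6 T cell markers were higher, with sums of 46.4 and 37.5 CPM on day 14 and 9.37 and 5.36 CPM on day 5. Their part was not tested.

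In neutrophils 3 of 37 tested members rose and 2 fell, where 10.3% of 3346 genes rose and 4.39% fell. Psmb9 had 229 and 207 CPM on day 14 and 102 and 101 CPM on day 5 (1.06 ± 0.26, adjusted p = 0.0172). Psmb8 had 471 and 635 CPM on day 14 and 333 and 281 CPM on day 5 (0.83 ± 0.22, adjusted p = 0.023). Psmb10, at 149 and 129.5 CPM on day 14 and 109 and 73.8 CPM on day 5, also kept the days apart but did not pass (0.62 ± 0.30, adjusted p = 0.19). These profiles rest on 69 and 60 cells on day 14 and 188 and 242 on day 5, and DESeq2 called none of the neutrophil members. Leaving out a library leaves 1 on its day, which is then assumed to vary like the libraries of the other day. The calls of Psmb9, Psme1, Psmb2 and Psmb3 were lost without either day 14 library (adjusted p = 0.138 and 0.0925 for Psmb9), and that of Psmb8 without replicate 2 of day 14 (0.26). The 7 neutrophil markers summed to 45560.1 and 48767 CPM on day 14 and 89738 and 170568 CPM on day 5, with 5 of them lower and 2 higher on day 14. All 8 microglial markers were lower, with sums of 1362 and 868 CPM on day 14 and 3370.2 and 2495 CPM on day 5. The part of these markers was not tested.

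Microglia had 1 of 42 tested members higher and 1 lower, close to the 2.75% and 1.06% of all 8659 genes tested. The 1 that rose was Psmb10, with 164 and 155 CPM on day 14 and 113 and 113 CPM on day 5 (0.66 ± 0.15, adjusted p = 0.0192). DESeq2 did not call it (adjusted p = 0.124), and the call was lost without replicate 1 of day 14 (0.11) or without replicate 1 or 2 of day 5 (0.129 and 0.16). Psmb9 had 113 and 177 CPM on day 14 and 102 and 107 CPM on day 5 (0.60 ± 0.18, adjusted p = 0.0978). Psmb8 had 429 and 556 CPM on day 14 and 396 and 407 CPM on day 5 (0.45 ± 0.15, adjusted p = 0.132). Neither passed. Replicate 2 of day 14 alone, with the spread taken from the day 5 libraries, gave an adjusted p of 0.00246 for Psmb9 and 0.0156 for Psmb8, which is no replicated difference. All 6 T cell markers were higher in the microglia of day 14, with sums of 87.6 and 30.1 CPM on day 14 and 3.96 and 7.11 CPM on day 5, and 7 of the 8 microglial markers were lower, with sums of 13424 and 12941 CPM on day 14 and 15508 and 17031 CPM on day 5. Their part was not tested.

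In NK cells, the cytotoxic innate lymphocytes, 1 of 40 members rose and none fell, against 3.33% and 1.43% of 5368 genes. At an unadjusted p under 0.05, 5 were higher and 1 lower, and DESeq2 called 0. The member that rose was Psmb9, with 228 and 269 CPM on day 14 and 123 and 177 CPM on day 5 (0.89 ± 0.23, adjusted p = 0.0334). The call was lost without replicate 1 of day 5 (adjusted p = 0.465) and with DESeq2 (0.152). Psmb8 in NK cells had 627 and 729 CPM on day 14 and 556 and 416 CPM on day 5 (0.60 ± 0.17, adjusted p = 0.0728), and Psmb10 had 243 and 281 CPM on day 14 and 223 and 171 CPM on day 5 (0.52 ± 0.21, adjusted p = 0.233). Both kept the days apart without passing, and the share of all genes that did so is not given. Replicate 2 of day 14 alone gave an adjusted p of 0.00184 for Psmb8 and 0.0469 for Psmb10, again with no spread of its own. All 6 NK cell markers were lower on day 14, with sums of 3431 and 3314 CPM on day 14 and 4855 and 5196 CPM on day 5. Of the 8 microglial markers 7 were lower in NK cells, with sums of 226 and 137 CPM on day 14 and 556 and 547 CPM on day 5, and 3 of the 6 T cell markers were higher, with sums of 839.8 and 902 CPM on day 14 and 718 and 627 CPM on day 5. The part of these markers was not tested.

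**Figure D2:**
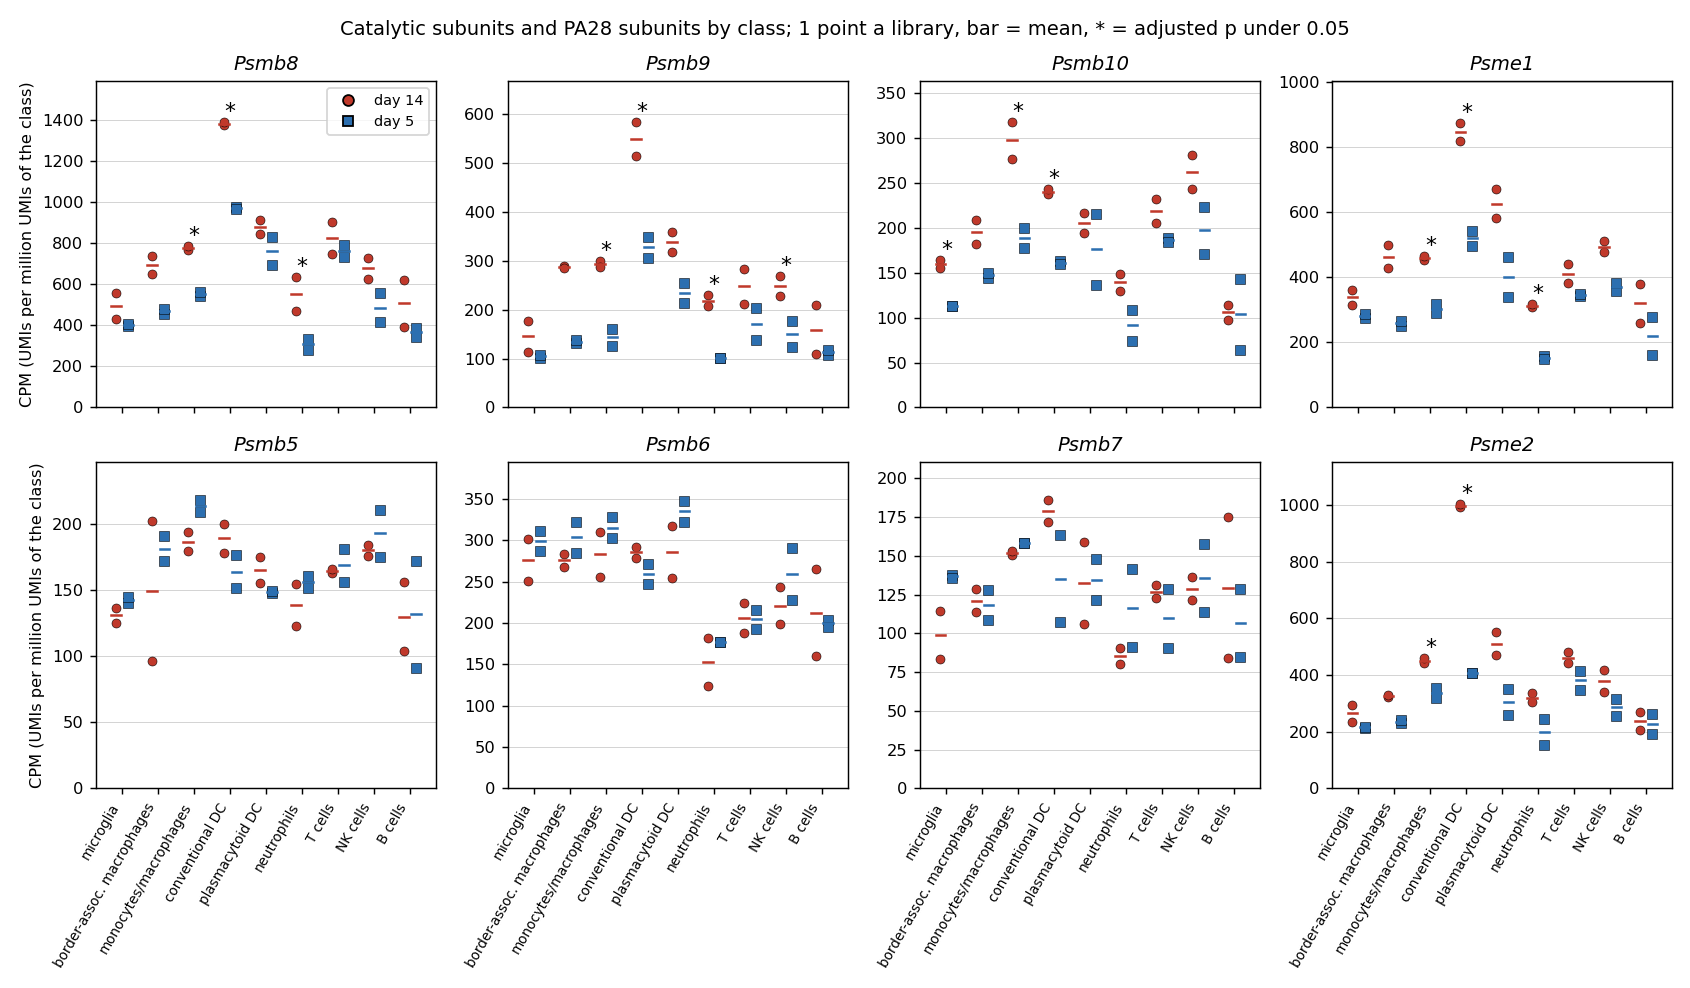
Level of the 3 inducible subunits and Psme1 (top) and of the 3 constitutive subunits and Psme2 (bottom), in CPM on a linear axis from 0, by class. Each point is a library, day 14 in red circles left of day 5 in blue squares, bars are means of 2 libraries and a star marks an adjusted p under 0.05. Stars stand over inducible and PA28 genes and over none of Psmb5, Psmb6 and Psmb7.

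No member was called in T cells, B cells or plasmacytoid dendritic cells by edgeR or by DESeq2. In T cells 0.638% of 6428 genes rose and 0.513% fell, and 1 of 40 members was higher and 1 lower at an unadjusted p under 0.05. In plasmacytoid dendritic cells 1.13% of 3616 genes rose and 0.664% fell, with 4 of 38 members higher and 1 lower unadjusted. In B cells 4.26% of 2207 genes rose and 0.906% fell, with 0 of 33 members higher and 1 lower unadjusted. Psmb8 in T cells had 747 and 902 CPM on day 14 and 732 and 790.3 CPM on day 5, so that the days overlapped (0.19 ± 0.15, adjusted p = 0.759). Psmb9 in T cells kept the days apart, at 212 and 283 CPM on day 14 and 202 and 138 CPM on day 5 (0.58 ± 0.25, adjusted p = 0.421). Psmb10 did so as well, with 205 and 232 CPM on day 14 and 188 and 184 CPM on day 5 (0.30 ± 0.22, adjusted p = 0.719). The share of all genes that kept the days apart in a class is not given, so this is description only. Of 8 microglial markers 7 were lower in T cells on day 14. Their sums were 352 and 320 CPM on day 14 and 843 and 1057 CPM on day 5, and their part was not tested. In plasmacytoid dendritic cells Psmb9 had 318 and 359 CPM on day 14 and 213 and 254 CPM on day 5 and Psmb8 912 and 846 CPM on day 14 and 832 and 692 CPM on day 5, both without overlap. Psmb10 overlapped there, at 194 and 216 CPM on day 14 and 137 and 216 CPM on day 5. The 8 markers of monocytes or macrophages summed there to 8843 and 11942 CPM on day 14 and 4131 and 4901 CPM on day 5. Of the class's own markers 5 summed to 5079 and 3478 CPM on day 14 and 3436 and 3973 CPM on day 5. All 8 microglial markers were lower, with sums of 449 and 1265 CPM on day 14 and 2391 and 3339 CPM on day 5. The part of these markers was not tested. In B cells Psmb9 and Psmb10 overlapped, Psmb9 at 109.8 and 208 CPM on day 14 and 107 and 117 CPM on day 5 and Psmb10 at 97.8 and 114 CPM on day 14 and 64.5 and 143 CPM on day 5. Psmb8 in B cells had 393 and 620.4 CPM on day 14 and 387 and 346 CPM on day 5, with the second day 14 library far above the other 3.

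Border-associated macrophages had too few cells to be tested. Their own 7 markers summed to 3370 and 2475 CPM on day 14 and 1951 and 2306 CPM on day 5. The 8 microglial markers summed to more, 3520 and 2512 CPM on day 14 and 3909 and 5155 CPM on day 5. The 7 neutrophil markers summed to 267 and 284 CPM on day 14 and 1965 and 766 CPM on day 5. What these markers contribute was not tested. All 3 inducible subunits kept the days apart there, Psmb8 at 738 and 650.2 CPM on day 14 and 453 and 482 CPM on day 5 and Psmb9 at 289 and 284 CPM on day 14 and 131 and 138 CPM on day 5. Psmb10 had 182 and 208 CPM on day 14 and 144 and 149.5 CPM on day 5. These levels rest on 18 and 23 cells on day 14. The share of all genes that kept the days apart in this class is not given, so the values are description only. Over the 8 tested classes, 10 of 24 values of the inducible subunits were called, all higher on day 14. Of all 44988 values 4.24% were higher and 2.39% lower. DESeq2 called 6 of the 24, and the share of all genes is not given for it. The median log2 fold change of the inducible subunits in a class ranged from 0.26 in plasmacytoid dendritic cells to 0.83 in neutrophils. The median of all genes tested in a class lay between -0.05 and 0.03.

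The constitutive subunits were called in no class. None of the 24 values of Psmb5, Psmb6 and Psmb7 passed with edgeR or DESeq2, and 1 was higher and 0 lower at an unadjusted p under 0.05. In monocytes or macrophages Psmb5, the chymotrypsin-like subunit, had 179.8 and 194 CPM on day 14 and 218 and 209 CPM on day 5 (-0.09 ± 0.13, adjusted p = 0.775). Psmb6, the caspase-like subunit, had 256 and 310.0 CPM on day 14 and 328 and 303 CPM on day 5 there, and the days overlapped. Psmb7, the trypsin-like subunit, had 151 and 153 CPM on day 14 and 158 and 159 CPM on day 5. The lowest adjusted p of the 24 was that of Psmb7 in conventional dendritic cells, with 172 and 186 CPM on day 14 and 163 and 107 CPM on day 5 (0.43 ± 0.17, adjusted p = 0.113). Against replicate 2 of day 5 alone, the lower of the pair and then without a spread of its own, the adjusted p was 0.00385. In the same cells Psmb5 had 178 and 200.2 CPM on day 14 and 176 and 151 CPM on day 5 and Psmb6 279 and 293 CPM on day 14 and 272 and 247 CPM on day 5. In microglia Psmb5 stood at 125 and 137 CPM on day 14 and 139.9 and 145 CPM on day 5, Psmb6 at 251 and 301 CPM on day 14 and 312 and 287 CPM on day 5 and Psmb7 at 83.6 and 115 CPM on day 14 and 138 and 136 CPM on day 5. Psmb5 and Psmb7 were thus a little lower on day 14 in CPM, with log2 fold changes after TMM scaling of 0.03 ± 0.15 and -0.34 ± 0.17.

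In neutrophils Psmb5 had 155 and 123 CPM on day 14 and 161 and 152 CPM on day 5, Psmb6 124 and 181 CPM on day 14 and 177 and 177 CPM on day 5 and Psmb7 80.5 and 90.7 CPM on day 14 and 142 and 91.0 CPM on day 5. NK cells had Psmb5 at 176 and 184 CPM on day 14 and 175 and 211 CPM on day 5 and Psmb6 at 199 and 243 CPM on day 14 and 228 and 291 CPM on day 5, with overlapping days for both. T cells had Psmb5 at 163 and 166 CPM on day 14 and 181 and 156 CPM on day 5 and Psmb6 at 187 and 224 CPM on day 14 and 216 and 193 CPM on day 5, again overlapping. Psmb7 lay from 83.8 to 175 CPM in the libraries of T, NK, B and plasmacytoid dendritic cells. In plasmacytoid dendritic cells Psmb6 had 254 and 317 CPM on day 14 and 323 and 348 CPM on day 5 and in B cells 159.7 and 265 CPM on day 14 and 204 and 196 CPM on day 5. The log2 fold changes of the 2 were -0.20 ± 0.22 and 0.01 ± 0.30. Psmb5 had 156 and 175 CPM on day 14 and 148 and 149.6 CPM on day 5 in plasmacytoid dendritic cells and 104 and 156 CPM on day 14 and 172 and 91.3 CPM on day 5 in B cells. In border-associated macrophages Psmb5 had 96.3 and 202 CPM on day 14 and 191 and 172 CPM on day 5, Psmb6 267 and 284 CPM on day 14 and 322 and 285 CPM on day 5 and Psmb7 128 and 114 CPM on day 14 and 109 and 128 CPM on day 5. The 3' end of Psmb5 shares 75.9% of its windows with Gm3375, and the part of that in its counts was not tested.

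Of the activators, the PA28 pair rose in some of the classes in which the inducible subunits did. Psme1 (PA28 alpha) rose in conventional dendritic cells, with 819 and 877 CPM on day 14 and 496 and 544 CPM on day 5 (0.74 ± 0.10, adjusted p = 0.000184). It rose in monocytes or macrophages, with 455 and 467 CPM on day 14 and 290.0 and 317 CPM on day 5 (0.71 ± 0.12, adjusted p = 0.00553). In neutrophils it had 309.6 and 317 CPM on day 14 and 158 and 149 CPM on day 5 (1.00 ± 0.24, adjusted p = 0.0135), again with no overlap of the days. In the 5 other tested classes Psme1 did not pass. It had 583 and 672 CPM on day 14 and 339 and 463 CPM on day 5 in plasmacytoid dendritic cells (0.67 ± 0.22, adjusted p = 0.206) and 477 and 511 CPM on day 14 and 359 and 382 CPM on day 5 in NK cells (0.55 ± 0.16, adjusted p = 0.084). With replicate 2 as the lone day 14 library the adjusted p was 0.0173 and 0.0158 in these classes. In microglia it had 315 and 362 CPM on day 14 and 275 and 286 CPM on day 5, and in T cells 382 and 442 CPM on day 14 and 342 and 349 CPM on day 5. The days of both classes stayed apart by a small margin. B cells overlapped, at 261 and 379 CPM on day 14 and 279 and 163 CPM on day 5, and border-associated macrophages did not, at 428 and 499 CPM on day 14 and 252 and 266 CPM on day 5.

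Psme2 (PA28 beta) had the largest called difference of any member in conventional dendritic cells, with 992 and 1005 CPM on day 14 and 405 and 409 CPM on day 5, a log2 fold change of 1.33 ± 0.09 (adjusted p = 1.28e-06). In monocytes or macrophages it had 444 and 459 CPM on day 14 and 353 and 318 CPM on day 5 (0.53 ± 0.12, adjusted p = 0.028). That call was lost without replicate 2 of day 5 (adjusted p = 0.164), without replicate 2 of day 14 (0.0808) and with DESeq2 (0.0753). Psme2 did not pass in microglia, at 233 and 295 CPM on day 14 and 215 and 216 CPM on day 5 (0.44 ± 0.15, adjusted p = 0.144), in plasmacytoid dendritic cells, at 470.1 and 552 CPM on day 14 and 257 and 351 CPM on day 5 (0.77 ± 0.23, adjusted p = 0.155), or in neutrophils, at 303 and 337 CPM on day 14 and 246 and 152 CPM on day 5 (0.70 ± 0.25, adjusted p = 0.0821). In all 3 the days were apart. In NK cells Psme2 had 341 and 418 CPM on day 14 and 315 and 256 CPM on day 5, in T cells 441 and 481 CPM on day 14 and 349 and 414 CPM on day 5 and in border-associated macrophages 321 and 328 CPM on day 14 and 230.1 and 241 CPM on day 5. B cells again overlapped, at 208 and 269.9 CPM on day 14 and 193 and 261 CPM on day 5.

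Psme2 has a near-identical copy, Psme2b, that the symbol rule leaves out and with which it shares all windows of its 3' end. Psme2b had more CPM in both day 14 libraries than in both day 5 libraries of every class. In conventional dendritic cells it had 219 and 173 CPM on day 14 and 11.9 and 13.9 CPM on day 5, and in microglia 67.4 and 60.3 CPM on day 14 and 15.8 and 14.8 CPM on day 5. The matrices of the 2 days also differ in layout, and the software version is given in the day 5 headers and empty in those of day 14. How reads were split between such copies therefore cannot be told apart from the day. With Psme2b added, the sum still rose in conventional dendritic cells (1.54 ± 0.09, adjusted p = 3.19e-07) and in monocytes or macrophages (0.76 ± 0.12, adjusted p = 0.00393). The sum also passed in neutrophils (0.99 ± 0.23, adjusted p = 0.0131), microglia (0.66 ± 0.14, adjusted p = 0.0156) and NK cells (0.75 ± 0.18, adjusted p = 0.0248), where Psme2 alone did not. Psme3 (PA28 gamma, a nuclear activator) was called in no class and had from 17.5 to 75.8 CPM on day 14 and from 23.7 to 129 CPM on day 5. Psme4 (PA200) was tested in 3 classes and called in none. In monocytes or macrophages it had 19.3 and 23.3 CPM on day 14 and 14.9 and 11.7 CPM on day 5 (0.80 ± 0.27, adjusted p = 0.127).

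Few of the structural subunits of the 20S core were called. None of 56 values of the 7 alpha subunits, which form the outer rings and the gate, passed with edgeR or DESeq2, with 4 higher and 2 lower at an unadjusted p under 0.05. Their log2 fold changes ranged from -0.77 to 0.46. Of the 4 structural beta subunits, Psmb2 and Psmb3 fell in neutrophils and the other 30 of 32 values were not called. Psmb2 had 111 and 117 CPM on day 14 and 239 and 208 CPM on day 5 (-0.99 ± 0.27, adjusted p = 0.0269), counted from 18 and 18 UMIs on day 14. Psmb3 had 167 and 104 CPM on day 14 and 312 and 256 CPM on day 5 (-1.08 ± 0.28, adjusted p = 0.0202). Psmb3 shares 79.5% of its 3' end windows with Gm4950, a gene of the files that had 49.5 and 32.4 CPM on day 14 and 2.36 and 0 CPM on day 5 in neutrophils. With Gm4950 added, the sum was 217 and 136 CPM on day 14 and 314 and 256 CPM on day 5 and did not pass (-0.70 ± 0.27, adjusted p = 0.0978). In the other classes Gm4950 had from 25.3 to 115 CPM on day 14 and at most 13.1 CPM on day 5.

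In the 19S cap, 1 ATPase and 1 non-ATPase were called, both lower on day 14. Psmc4, an ATPase of the ring that unfolds substrates, fell in microglia, with 44.5 and 52.2 CPM on day 14, against 101 and 87.5 CPM on day 5 (-0.81 ± 0.20, adjusted p = 0.0383). The call was lost with DESeq2 (adjusted p = 0.274), without replicate 1 of day 14 (0.236) and without replicate 1 of day 5 (0.142). Psmd2 (RPN1), a scaffold that receives ubiquitin-carrying shuttle factors, fell in monocytes or macrophages, with 79.2 and 81.7 CPM on day 14, against 131 and 127 CPM on day 5 (-0.57 ± 0.14, adjusted p = 0.0393). It did not pass when any 1 of the 4 libraries was left out (adjusted p from 0.0653 to 0.167) or with DESeq2 (0.29). The 48 values of the ATPases ranged from -1.81 to 0.28 on the log2 scale and the 100 values of the non-ATPases from -1.09 to 0.70. At an unadjusted p under 0.05, 5 ATPase values were lower and 0 higher, and 11 non-ATPase values were lower and 0 higher. The share of all genes at this limit is not given, so these counts are no result about the cap.

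**Figure D3:**
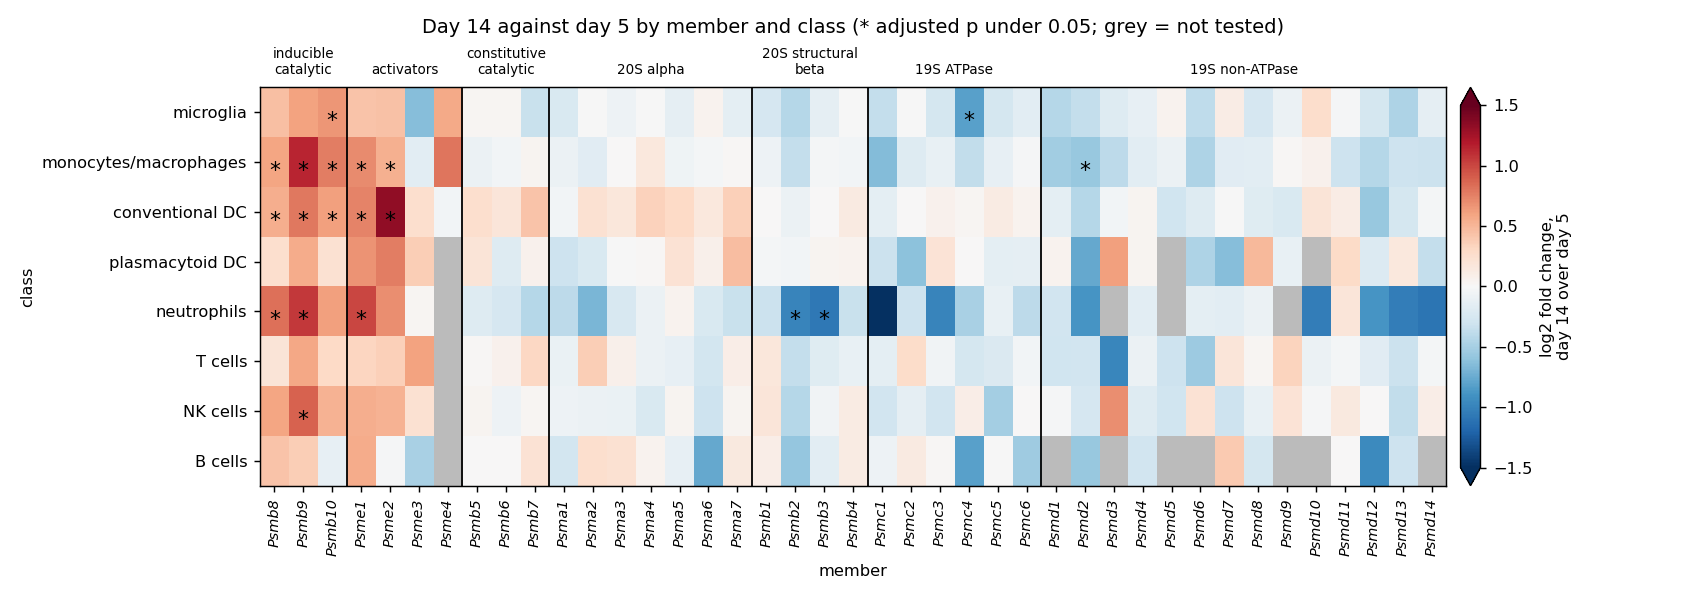
Log2 fold change of day 14 over day 5 for members (columns, by role) in the 8 tested classes (rows), on a colour scale cut at 1.5 in both directions. Red is higher and blue lower on day 14, stars mark an adjusted p under 0.05 and grey cells were not tested. Of the stars 15 are in red cells, all of inducible subunits, Psme1 or Psme2, and 4 in blue cells.

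Over all members and classes 312 values were tested, of which 15 were called higher and 4 lower, close to or below the 4.24% and 2.39% of all 44988 values of the 8 classes. All 15 belong to the inducible subunits (10) and to Psme1 and Psme2 (5), as the map of fold changes shows. The summed share of all members differed less between the days than the mix of them. All 44 members took 0.898 and 0.957% on day 14, against 0.767 and 0.731% on day 5 of the UMIs of conventional dendritic cells. In plasmacytoid dendritic cells the share stood at 0.794 and 0.837% on day 14, against 0.759 and 0.755% on day 5. Microglia went the other way, with 0.463 and 0.546% on day 14 and 0.574 and 0.555% on day 5. In the other 6 classes the days overlapped, as in monocytes or macrophages, where members took 0.732 and 0.768% on day 14 and 0.760 and 0.771% on day 5. With cells thinned to 1000 UMIs, the days of plasmacytoid dendritic cells and of microglia overlapped, and the neutrophils of day 14 lay below those of day 5. The thinning left out 63 of 188 and 61 of 242 neutrophils of day 5, which had under 1000 UMIs, and none of day 14.

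Dendritic cells, monocytes or macrophages and microglia were then split by marker UMIs, a division chosen after the data were seen. The split rests on few UMIs, so the shares of the subsets also depend on the depth of the cells. Cells with 2 or more UMIs of Ccr7, Ccl22 or Ccl17, markers of mature migratory dendritic cells, made up 44.9 and 41.9% on day 14 and 16.3 and 20% on day 5 of conventional dendritic cells. Cells were assigned to this subset first, then to that with Xcr1 or Clec9a and last to that with Cd209a. Cells with Cd209a outside the earlier subsets made up 13.9 and 15.9% on day 14 and 49.8 and 46.7% on day 5. Their share therefore also depends on the size of those subsets. Cd209a is a marker of the cDC2 and monocyte-derived kind. Mature cells carried the most Psme2, 1705 and 1709 CPM on day 14 and 1080.0 and 1153 CPM on day 5. The Cd209a cells had 456 and 362 CPM on day 14 and 236 and 208 CPM on day 5 of Psme2. In cells with Xcr1 or Clec9a, markers of the cross-presenting cDC1, Psme2 was at 536 and 666 CPM on day 14 and 466 and 395 CPM on day 5. Psme2 was thus higher on day 14 inside each of these 3 subsets, while the make-up of the class differed between the days as well. How much of the class difference each accounts for was not tested. The ratio of inducible to constitutive UMIs was 4.27 and 3.83 on day 14, against 3.78 and 3.49 on day 5 in mature cells. It was 2.40 and 2.66 on day 14, against 2.04 and 2.05 on day 5 in Cd209a cells. In Xcr1 or Clec9a cells the days overlapped, at 2.94 and 3.15 on day 14 and 2.44 and 3.70 on day 5. Cells without a subset marker overlapped as well, at 3.46 and 2.40 on day 14 and 2.04 and 3.19 on day 5.

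Monocytes and macrophages kept the days apart in both of their marker subsets. The days overlapped in their cells with neither marker, with ratios of 1.69 and 2.24 on day 14 and 1.20 and 1.79 on day 5. Cells with Ly6c2 and without Ms4a7, the inflammatory monocyte kind, had ratios of 2.52 and 2.42 on day 14 and 1.34 and 1.4 on day 5. Cells with Ms4a7, a marker of monocyte-derived macrophages, had 2.08 and 1.82 on day 14 and 1.12 and 1.24 on day 5. Psmb9 stood at 315 and 311 CPM on day 14 and 148 and 163 CPM on day 5 in the Ly6c2 cells and at 282 and 252 CPM on day 14 and 121 and 137 CPM on day 5 in the Ms4a7 cells. Microglia with Cst7, a gene of the disease-associated state, made up 83.2 and 86.3% on day 14 and 53.3 and 45.8% on day 5 of microglia. Their ratio was 1.49 and 1.54 on day 14, against 1.04 and 1.06 on day 5. Microglia without a Cst7 UMI, 31 and 13 cells on day 14, had 2.11 and 2.22 on day 14 and 1.02 and 1.18 on day 5.

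**Figure D4:**
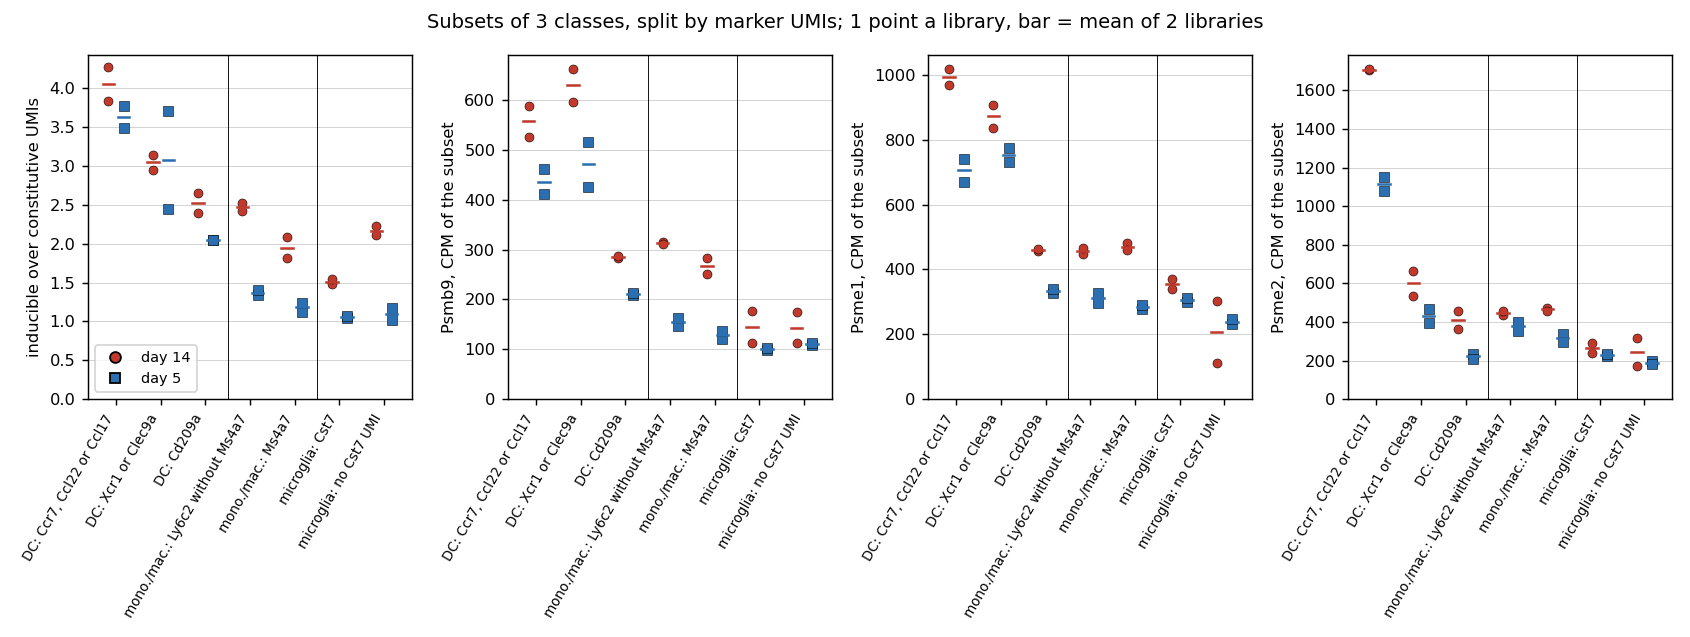
Ratio of inducible to constitutive UMIs, and levels of Psmb9, Psme1 and Psme2 in CPM, in subsets of conventional dendritic cells (DC), monocytes or macrophages (mono./mac.) and microglia split by marker UMIs. Each point is a library, day 14 in red circles left of day 5 in blue squares, and bars are means of 2 libraries. Psme2 is highest in DC with Ccr7, Ccl22 or Ccl17, at 1705 and 1709 CPM on day 14 and 1080.0 and 1153 CPM on day 5.

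Classes also differed from each other over both days. Each class was set against the mean of the other 7 with the library as a block, and 41 members were tested by edgeR. Conventional dendritic cells had 14 members higher and 0 lower, beside 20.3% of 8028 genes higher and 10.9% lower. Psmb9 was 1.33 ± 0.10 above the other classes on the log2 scale (adjusted p = 2.15e-13). Psme2 followed (1.15 ± 0.12, adjusted p = 3.39e-10), then Psmb8 (1.1 ± 0.09, adjusted p = 2.69e-12) and Psme1 (1.04 ± 0.09, adjusted p = 5.51e-12). Psmb10 was less apart (0.34 ± 0.11, adjusted p = 0.0186), and of the constitutive subunits Psmb7 (0.39 ± 0.12) and Psmb6 (0.25 ± 0.09) were higher. The other 7 lay between 0.28 ± 0.09 (Psma1) and 0.44 ± 0.11 (Psma5). They include the alpha subunits Psma3, Psma4 and Psma7, the structural Psmb4 and the cap subunit Psmd8.

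Monocytes or macrophages had 20 members higher and 0 lower, beside 26.4% of genes higher and 16.8% lower. All 7 alpha subunits were higher, among them Psma7 (0.72 ± 0.10, adjusted p = 4.1e-07) and Psma4 (0.63 ± 0.09, adjusted p = 3.42e-07). Psmb10 was higher (0.62 ± 0.11, adjusted p = 1.02e-05), while Psmb8 and Psmb9 did not pass (0.14 ± 0.10 and 0.13 ± 0.11). All 3 constitutive subunits were higher, Psmb5 by 0.40 ± 0.09, Psmb6 by 0.38 ± 0.09 and Psmb7 by 0.34 ± 0.12. Psme4 (0.67 ± 0.21), Psmd8 (0.59 ± 0.10), Psmb2 (0.47 ± 0.11) and the ATPase Psmc6 (0.45 ± 0.09) were higher too.

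Microglia had 5 members higher and 7 lower, beside 27.4% and 16.4% of all genes. Their constitutive Psmb6 was higher (0.49 ± 0.09, adjusted p = 2.81e-05), and its inducible counterpart Psmb9 was lower (-0.54 ± 0.12, adjusted p = 0.000216). Psmb8 was lower as well (-0.33 ± 0.10, adjusted p = 0.00851), and so was Psme2 (-0.36 ± 0.13, adjusted p = 0.0239). Of the cap, the non-ATPase scaffold Psmd1 (0.48 ± 0.13) and the ATPases Psmc2 (0.40 ± 0.11) and Psmc5 (0.36 ± 0.11) were higher. Psmd14, the deubiquitinase of the lid, was lower (-0.36 ± 0.15), as were the ubiquitin receptor Psmd4 (-0.33 ± 0.10) and the alpha subunit Psma7 (-0.35 ± 0.11).

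Neutrophils had 0 members higher and 10 lower, beside 20% and 13.5% of all genes. Among the 10 were Psme1 (-0.68 ± 0.11, adjusted p = 1.12e-05), Psmb8 (-0.50 ± 0.11, adjusted p = 0.000544), Psmb10 (-0.49 ± 0.15) and the constitutive Psmb6 (-0.41 ± 0.12). The other 6 were the assembly chaperone Psmd9 (-0.85 ± 0.26), Psme3 (-0.58 ± 0.23), the structural Psmb1 (-0.55 ± 0.11), Psmd2 (-0.52 ± 0.16), Psmd11 (-0.45 ± 0.15) and Psmc4 (-0.43 ± 0.17). B cells had 1 member higher and 13 lower, beside 13.1% and 15.5% of all genes, and all 3 inducible subunits were among the lower. Psmb10 stood at -0.71 ± 0.17, adjusted p = 0.00114, Psmb9 at -0.64 ± 0.15, adjusted p = 0.00157 and Psmb8 at -0.53 ± 0.12, adjusted p = 0.0005. Psme1 and Psme2 stood at -0.50 ± 0.12 and -0.59 ± 0.16. Psme3 was the 1 that was higher (0.62 ± 0.22, adjusted p = 0.0303). Psma4 (-0.73 ± 0.14), Psmd1 (-0.71 ± 0.24), Psmb2 (-0.55 ± 0.16), Psma7 (-0.51 ± 0.14) and Psma5 (-0.47 ± 0.17) were lower.

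NK cells had 2 higher and 2 lower beside 19.1% and 18.6% of genes. Psmb10 (0.35 ± 0.12) and Psmd11 (0.35 ± 0.12) were higher, and Psmd8 (-0.49 ± 0.12) and Psmb8 (-0.28 ± 0.11) lower. T cells had 1 higher, Psmb3 (0.30 ± 0.12), and 1 lower, Psmb6 (-0.44 ± 0.11), beside 19.8% and 19.1%. With Gm4950 added, Psmb3 no longer passed in T cells (0.28 ± 0.12, adjusted p = 0.0726, against 0.0484 alone). Plasmacytoid dendritic cells had 0 higher and 1 lower, Psma1 (-0.34 ± 0.11), beside 12% and 7.72%. Over all classes 43 of 328 values were higher and 34 lower, beside 19.8% and 14.8% of all values. Without replicate 1 of day 14, 25 were higher and 16 lower, and without replicate 2 of day 14, 21 were lower. Some of the members called here share part of their 3' end with another gene, Psmd11 for 100% of its windows with Gm14048, Psma4 for 91.4% with Gm6542, Psma3 for 63.7% with Gm13835 or Gm5406, Psma5 for 46.5% with Gm12989, Psmc1 for 23.4% with an unnamed gene and Psmd2 for 16.5% with Gm5422. The part of that in their counts was not tested. Psmd1 shares 68.7% with Gm21972, which had at most 0.518 CPM in any class and library.

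**Figure D5:**
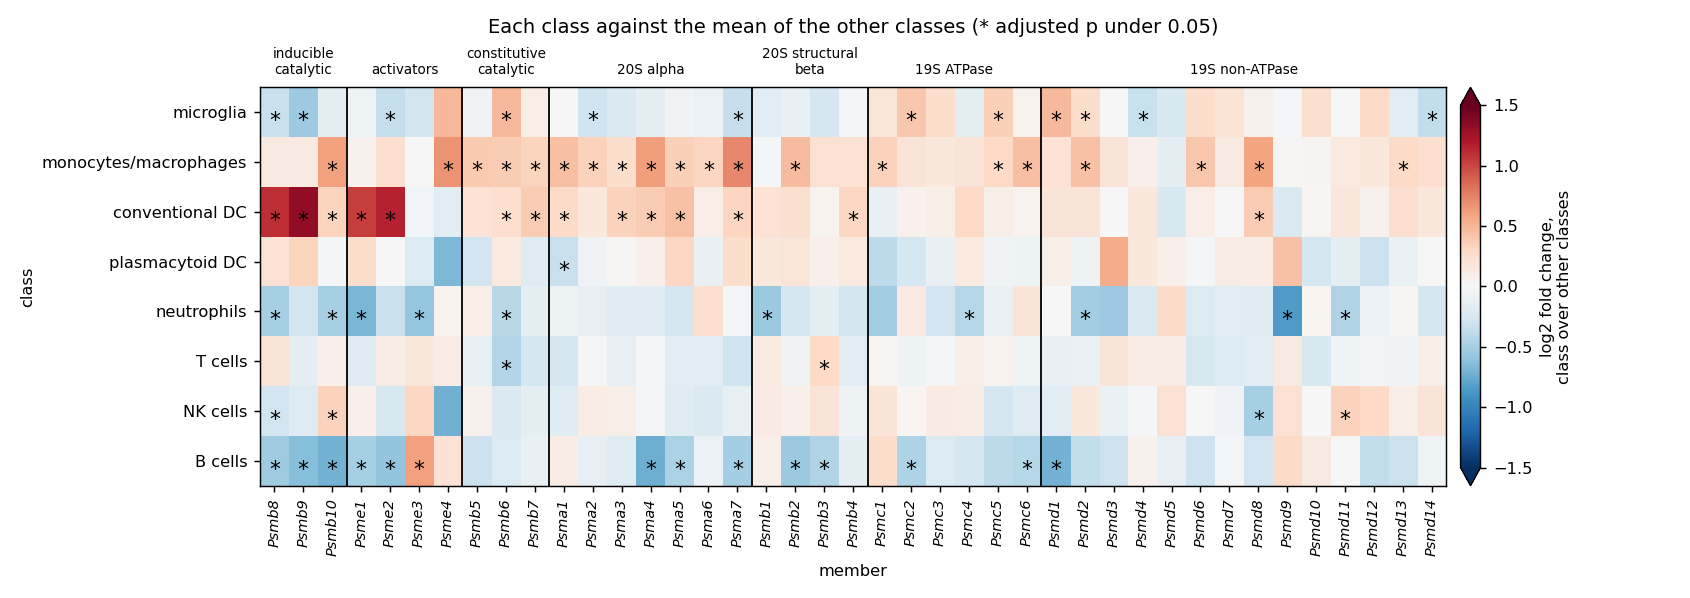
Log2 fold change of each class over the mean of the other 7 tested classes, over both days, for members (columns, by role) and 8 classes (rows), on a colour scale cut at 1.5 in both directions. Stars mark an adjusted p under 0.05, 43 in red cells (higher) and 34 in blue ones (lower). Psmb8, Psmb9, Psme1 and Psme2 are darkest red in conventional DC, and blue in B cells.

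Whether the day difference itself varied between classes was tested with class-by-day terms in 1 fit by edgeR, where 12.2% of 8028 genes passed. Of 41 members, Psme2 (adjusted p = 0.00114) and Psma2 (adjusted p = 0.0259) passed. Psme2's own log2 fold changes ran from -0.02 ± 0.28 in B cells to 1.33 ± 0.09 in conventional dendritic cells. Without replicate 1 of day 14 it did not pass (adjusted p = 0.0966). Psma2, an alpha subunit, ran from -0.68 ± 0.27 in neutrophils, with 124 and 181 CPM on day 14 and 262 and 221 CPM on day 5, to 0.36 ± 0.20 in T cells, with 274 and 308 CPM on day 14 and 258 and 211 CPM on day 5, and was called in neither. Its test did not hold with the RLE scaling (adjusted p = 0.106) or with any 1 library left out (0.0828 to 0.447). Psmb3 did not pass alone (adjusted p = 0.0578) and passed with Gm4950 added (0.0298). Psmb8, Psmb9, Psmb10 and Psme1 did not pass, so their day differences are not shown to differ between classes.

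Genes around the proteasome were read from lists of related genes, beside 4.24% of all values higher and 2.39% lower over the 8 classes. Of 57 values of the 8 class I presentation genes, 22 were higher on day 14 and 0 lower, and of 58 values of 9 interferon signalling genes 15 were higher and 3 lower. The 10 genes of the assembly and inhibitor list had 1 of 65 values higher and 0 lower. That list also holds Adrm1, Sem1, Uchl5 and Usp14, which are other proteasome-bound proteins. The 4 genes of the NRF1 and NRF2 route had 1 of 23 values higher and 1 lower. Microglia, with 1 member higher and 1 lower, had 5 of 8 class I genes higher. H2-K1, a class I heavy chain, had 1611 and 1906 CPM on day 14 and 727 and 727 CPM on day 5 (1.43 ± 0.13, adjusted p = 6.44e-06). B2m, the class I light chain (1.41 ± 0.10, adjusted p = 6.16e-07), and H2-D1, the other heavy chain (1.45 ± 0.11, adjusted p = 9.25e-07), were higher as well. In monocytes or macrophages Nlrc5, the class I transactivator (1.52 ± 0.35, adjusted p = 0.0291), and H2-K1 (1.12 ± 0.12, adjusted p = 0.000395) rose.

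In conventional dendritic cells Nlrc5 rose (1.03 ± 0.31, adjusted p = 0.0401), and Ifngr1, a chain of the interferon gamma receptor, fell (-0.99 ± 0.11, adjusted p = 5.69e-05). In neutrophils Jak2 (2.45 ± 0.58) and Irf9 (2.25 ± 0.42) rose. In NK cells Ifng, the interferon gamma gene, fell, with 85.9 and 62.8 CPM on day 14 and 166 and 182 CPM on day 5 (-1.12 ± 0.25, adjusted p = 0.0172). Their Ifngr1 was lower too (-0.59 ± 0.15). In T cells and B cells none of the 31 and 15 tested genes of these lists was called by edgeR or DESeq2. At an unadjusted p under 0.05, 4 were higher and 1 lower in T cells, and 0 were in B cells.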

How the data were processed

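The authors deposited, for each of the 4 libraries, a matrix of UMI counts per gene and cell barcode. Per the submitters' processing notes these were made with Cell Ranger 3.0.1 and Seurat 2.3.4 on GRCm38 (mm10). Per the file headers, the day 5 matrices carry version 3.0.1 and those of day 14 carry none. The annotation release is not given in the sources used here.

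Barcodes with at least 200 genes and at most 10% mitochondrial UMIs were scored for each of the 9 classes by the mean z-score of its markers. The 86 markers listed in all include those of other cell types and of all leukocytes, which did not enter the score. The best class was taken with at least 2 UMIs of 2 markers and a margin of 0.2. Of 10925 barcodes, 84 failed the gene or mitochondrial limit, 500 were left out as mixed, 1675 stayed without a class and 8666 were used. Mixed were T, NK or B cells with over 2% of their UMIs from 7 phagocyte genes. Barcodes of another class with 3 or more UMIs of T or of B cell markers also counted as mixed. Mixtures among the myeloid classes were not removed beyond the margin. No doublet caller was run, and the gate limits were set after the data were seen.

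Counts were summed per class and library and tested with edgeR 4.0.16 (quasi-likelihood test, TMM scaling, filterByExpr with a minimum count of 10 and a total of 15), with Benjamini-Hochberg adjustment over all genes of a class at 0.05, in the 8 classes with at least 20 cells in every library. TMM moved the median log2 fold change of plain CPM from -0.19 to -0.03 in microglia, from -0.11 to -0.01 in monocytes or macrophages, from -0.11 to 0.02 in NK cells and from 0.03 to 0.10 in T cells. Printed CPM are plain. DESeq2 1.42.0, RLE scaling, no filter, a stricter gate (3 UMIs), mixed cells kept, thinning to 1000 UMIs, a replicate block and leaving out each library were alternatives. Thinning left out cells with under 1000 UMIs. R 4.3.3 and Python 3.11.15 were used, and the fits were tested on simulated data. Replicate numbers did not pair the libraries (correlations of same-numbered libraries from -0.15 to -0.0006).

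The members and gene lists were chosen with earlier results of these data known. Named are the catalytic subunits, Psme1 and Psme2 in every class, up to 6 other called members per class, and up to 3 called genes of the other lists. A called gene of the other lists is not reported here.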

Additional observations from a re-analysis of the deposited data

Results flagged for a closer look

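The day difference of Psme2 varied between the 8 tested classes (adjusted p = 0.00114, edgeR's quasi-likelihood F test of the class-by-day terms over 8028 genes). Its adjusted p lay between 0.000607 and 0.0966 over the alternatives, and it passed in all of them except without replicate 1 of day 14, with Psme2b added included (0.0011). The day difference of Psma2 varied too (adjusted p = 0.0259), with log2 fold changes from -0.68 in neutrophils to 0.36 in T cells, and it did not pass with RLE scaling or with any 1 library left out.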

How the results depend on the processing

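Of the 19 member calls between the days, the 5 of conventional dendritic cells and those of Psmb8, Psmb9, Psmb10 and Psme1 in monocytes or macrophages held in all 10 alternatives, and DESeq2 lost 10. With DESeq2, 9 instead of 15 member values were higher and 0 instead of 4 lower. Without 1 library the lower count was 0 to 6. Members higher or lower in a class ranged from 25 to 37 (43 in full) and from 16 to 23 (34 in full), and members with a class-by-day difference from 0 to 1 (2 in full, 1 with RLE). Genes called by DESeq2 were 170 instead of 330 in microglia, 315 of 548 in monocytes or macrophages, 452 of 1105 in conventional dendritic cells, 259 of 493 in neutrophils and 155 of 256 in NK cells. Without a filter they were 549 in microglia, 1022 in monocytes or macrophages, 268 (65 with it) in plasmacytoid dendritic cells, 204 (74) in T cells and 201 (114) in B cells. With mixed cells kept they were 98 in plasmacytoid dendritic cells, 393 in T cells, 386 in NK cells and 376 in B cells. Leaving out 1 library gave 103 to 216 in plasmacytoid dendritic cells, 209 to 550 in neutrophils, 39 to 93 in T cells, 162 to 303 in NK cells and 40 to 147 in B cells.

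The replicate block kept all 19 member calls and gave 5 instead of 4 lower member values. It called 10 genes in plasmacytoid dendritic cells and 13 in B cells. The crossed replicate block, added after seeing the data, gave 135 in plasmacytoid dendritic cells, 197 in T cells, 391 in NK cells and 72 in B cells.

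The difference in ratio, day 14 minus day 5, became 0.88 in microglia (0.503 in full), 0.655 in plasmacytoid dendritic cells (0.546), 1.12 in neutrophils (1.30), 0.49 in T cells (0.276), 0.626 in NK cells (0.814) and 0.798 in B cells (0.286) with cells thinned to 1000 UMIs. With mixed cells kept it was 0.628 in plasmacytoid dendritic cells and 0.506 in T cells, and with the stricter gate 0.104 in T cells. In subsets it was 1.07 in microglia without Cst7, 1.1 in Ly6c2 cells, 0.768 in Ms4a7 cells and 0.469 in monocytes or macrophages with neither, and 0.313 in conventional dendritic cells without a subset marker. It reversed to -0.029 in Xcr1 or Clec9a cells. The difference in share of UMIs, in percent, became -0.0668 in border-associated macrophages, 0.00166 in plasmacytoid dendritic cells and -0.143 in neutrophils with thinned cells. The cause of these differences was not tested. Under 100 cells stood behind 1 or more libraries in every class but monocytes or macrophages, conventional dendritic cells and NK cells, and the shallowest profile was that of B cells in replicate 1 of day 5, with 93069 UMIs.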
